A study of Mus musculus with 6 samples.

Results

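The 35 genes described here make cholesterol and fatty acids, sense sterol levels, or move sterols across the intestinal epithelium. They were taken by symbol from count tables of 46078 genes, and all 35 were found in the 6 libraries and passed the filter on low counts, which left 17254 genes for testing. They were grouped by what they do, with earlier results of these data known. By role there were 7 genes of the mevalonate steps, 11 of the squalene and sterol steps, 6 of SREBP control, 6 of fatty acid synthesis, and 5 of sterol transport and its nuclear receptor.

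RNA was sequenced from adenomas of the small intestine of mice with the ApcMin mutation, which cuts short the Wnt inhibitor Apc and makes polyps form along the gut. The knockout group had the genotype miR-34a/b/c-/-;ApcMin/+ and the wild-type group miR-34a/b/c+/+;ApcMin/+, both of C57BL6/SV129 strain and killed at 18 weeks of age, so that the controls carried ApcMin as well. Each group had 3 mice, and each library held total RNA of a pool of 3 adenomas of a single mouse, which makes the mouse the replicate. The question was how ApcMin adenomas change in transcript levels once the 3 microRNAs are gone.

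Cholesterol is built from acetyl-CoA through mevalonate, isoprenoid units, squalene and lanosterol, and fatty acids are built from the same acetyl-CoA by carboxylation, chain assembly, elongation and desaturation. SREBP transcription factors switch on both programs after their escort Scap carries them to the Golgi for cleavage, and Insig proteins hold Scap back when sterols are plentiful. In the small intestine Npc1l1 takes up dietary cholesterol at the brush border, Abcg5 and Abcg8 pump sterols back into the lumen, and LXR receptors, Nr1h3 among them, control the exporters.

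Library totals ran from 26375035 to 38354355 counts, and 16 of the 17254 genes differed between genotypes in edgeR's quasi-likelihood test with Benjamini-Hochberg adjustment at 0.05. The Mir34a, Mir34b and Mir34c rows held 0 counts in all 6 libraries, wild-type included, so they do not check the genotype labels. Epithelial markers were abundant throughout (Epcam between 1792 and 2716 CPM, the usual library-size-scaled count, here with TMM factors), while Adipoq, Plin1 and Lep, the most specific of 8 fat cell markers, were at or below 0.0991 CPM in each library. Of the other 5, Cidec (39.4 to 88.3 CPM) and Fabp4 (8.20 to 20.4 CPM), both also made outside fat cells, were present, and Plin4, Cfd and Retn did not exceed 1.58 CPM. In the sum of 12 enterocyte markers, knockout replicate 2 stood apart from the other 2 knockout libraries. The sum was 19597 CPM there, against 8314 and 10660 CPM in knockout replicates 1 and 3. Alpi alone held 5249 CPM of it, against 1460 and 934 CPM. Not every marker went this way, since Lct and Anpep were higher in knockout replicate 3 (270 and 626 CPM) than in knockout replicate 2 (149 and 514 CPM). Knockout replicate 2 and wild-type replicate 3 had 56 and 125 counts of Xist and 5813 and 5719 counts of 4 Y-linked genes. The other 4 libraries had at least 20001 counts of Xist and at most 98 of the Y-linked genes. Knockout replicate 2 and wild-type replicate 3 were therefore taken as male. Where a range is given with any mouse left out, it covers the 6 fits that each omit 1 mouse.

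The deleted microRNAs share a seed, bases 2 to 8 of the mature strand, which pairs with sites in 3′ UTRs. Their sequences are shown because the same letters were then searched in the 35 genes. The mature forms from RefSeq (GRCm38) are written 5′ to 3′ with the seed in capitals, miR-34a-5p at chr4:150068473-150068494 on the plus strand and miR-34b-5p at chr9:51103610-51103632 on the minus strand. The third family member, miR-34c-5p, is named only.
mmu-miR-34a-5p: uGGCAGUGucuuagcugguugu
mmu-miR-34b-5p: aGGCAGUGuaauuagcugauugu

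A seed site was searched on the transcript strand of the longest annotated 3′ UTR (GENCODE M21) as CACTGCC, as the 8mer CACTGCCA that contains it, or as ACTGCCA, which overlaps both. Among the 35 genes, 7 held a site (20.0%), against 22.8% of 14693 tested genes with a 3′ UTR. The 8mer was in 1 of the 35 (2.86%), against 5.77% of those genes, although the 35 had the longer 3′ UTRs (median 1462 against 1141 bases). The 7 genes were Scd1, Dhcr7, Elovl6, Fasn, Fdft1, Hsd17b7 and Sc5d. The 8mer of Scd1 and 1 site each of Fasn and Hsd17b7 are printed as the gene with the strongest match, the fatty acid synthase and the site-bearing sterol gene with the smallest p, with the match in capitals. They lie on the minus strand of mm10 at chr19:44394635-44394664, chr11:120807062-120807090 and chr1:169950915-169950943.
Scd1: tgcaagactacctaccCACTGCCAtgaaaa
Fasn: actgcacgtgagcgagCACTGCCttcggt
Hsd17b7: taaaagcatgcactacCACTGCCcggcta

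In the 7 genes with a site the median log2 fold change, knockout over wild-type, was 0.18, with 5 of 7 higher in the knockout adenomas. In the 28 genes without a site it was 0.00, with 14 of 28 higher. The ranges overlapped widely, from -0.22 to 1.01 with a site and from -0.35 to 0.50 without, and none of the 7 passed the test.

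Promoter windows of RefSeq (GRCm38), 250 bases before to 50 after the start of a gene, were found for 29 of the 35 genes. The sterol regulatory element that SREBP binds was searched on both strands as TCACNCCA, and its E-box form as TCACGTG. A match is a match of letters and was not tested as a bound site. TCACNCCA was in 3 of 29 windows (10.3%), against 4.97% of 27025 gene windows, and TCACGTG in another 3 of 29 (10.3%), against 4.29%. No window held both, since the 2 groups of genes do not share a member. The letters CCAAT, read by the factor NF-Y, were in 23 of 29 (79.3%) against 41.1%, and the GC box GGGCGG, read by Sp1-type factors, in 21 of 29 (72.4%) against 38.2%, also on both strands. The 27025 windows were not limited to the genes tested here, while the 35 genes were all tested. These shares are therefore not matched for expression. The 6 windows with either form of the element are shown around the match, which is in capitals.
Hmgcs1: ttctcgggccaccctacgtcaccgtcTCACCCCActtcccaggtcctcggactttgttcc
Msmo1: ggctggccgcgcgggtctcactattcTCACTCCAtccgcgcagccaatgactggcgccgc
Srebf2: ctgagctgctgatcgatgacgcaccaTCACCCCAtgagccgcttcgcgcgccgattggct
Hsd17b7: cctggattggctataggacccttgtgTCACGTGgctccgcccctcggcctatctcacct
Insig1: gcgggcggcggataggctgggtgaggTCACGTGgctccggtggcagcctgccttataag
Sc5d: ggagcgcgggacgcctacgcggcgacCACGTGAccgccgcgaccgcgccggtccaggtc
These lie at chr13:119690188-119690247 (plus strand), chr8:64733722-64733781 (minus), chr15:82147081-82147140 (plus), chr1:169969317-169969375 (minus), chr5:28071284-28071342 (plus) and chr9:42264366-42264424 (minus), in the order shown. The matches begin between 98 and 177 bases before the start of the gene. In Sc5d the match was on the other strand and reads CACGTGA.

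None of the 35 genes differed between genotypes at an adjusted p of 0.05 (edgeR), where 0.0927% of all tested genes did, and none had an unadjusted p under 0.05, where 5.85% of all tested genes did. DESeq2 called none of the 35 either, and 1 of them, Scd1, had an unadjusted p under 0.05 there. The lowest adjusted p of the 35 was 0.793 (edgeR). In the knockout adenomas 19 were higher and 16 lower, with a median log2 fold change of 0.04 against 0.01 over all tested genes and a range from -0.35 to 1.01. For 30 of the 35 the 95% interval of the log2 fold change lay inside -1 to 1, so that a difference of 2-fold or more was outside the interval, where 61.2% of all tested genes had such an interval. The other 5 were Scd1, Scd2, Abcg5, Abcg8 and Abca1. The tested genes as a whole include genes of few counts and were not matched to the 35 for level. The groups did not overlap in 2 of the 35, Acat2 and Stard4, where 11.2% of all tested genes did not overlap.

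**Figure D1:**
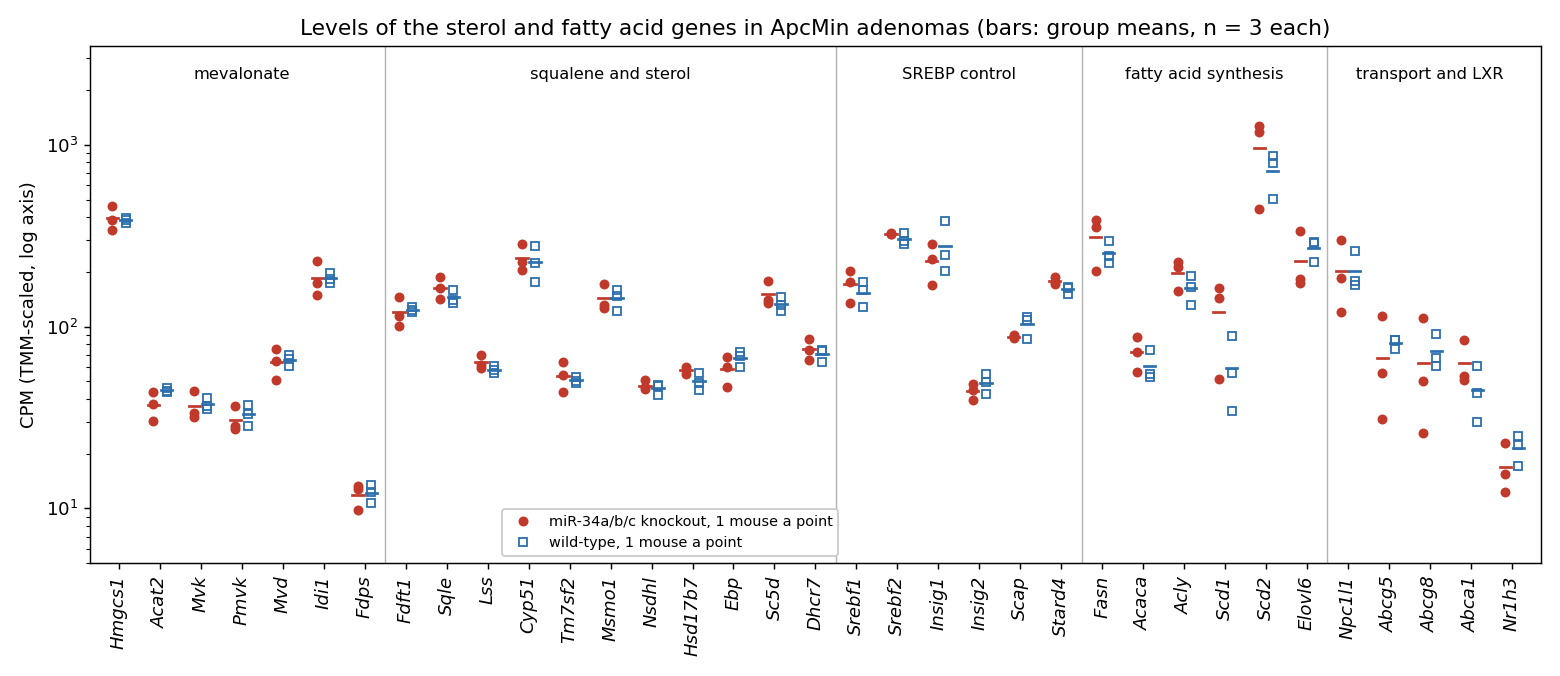
Level of each of the 35 genes in CPM (TMM-scaled, log axis), grouped by role, with filled circles for the 3 miR-34a/b/c knockout mice, open squares for the 3 wild-type mice and bars for group means. The points of the 2 genotypes interleave in all genes but Acat2 and Stard4, and they spread most in Scd1, Abcg5 and Abcg8.

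**Figure D2:**
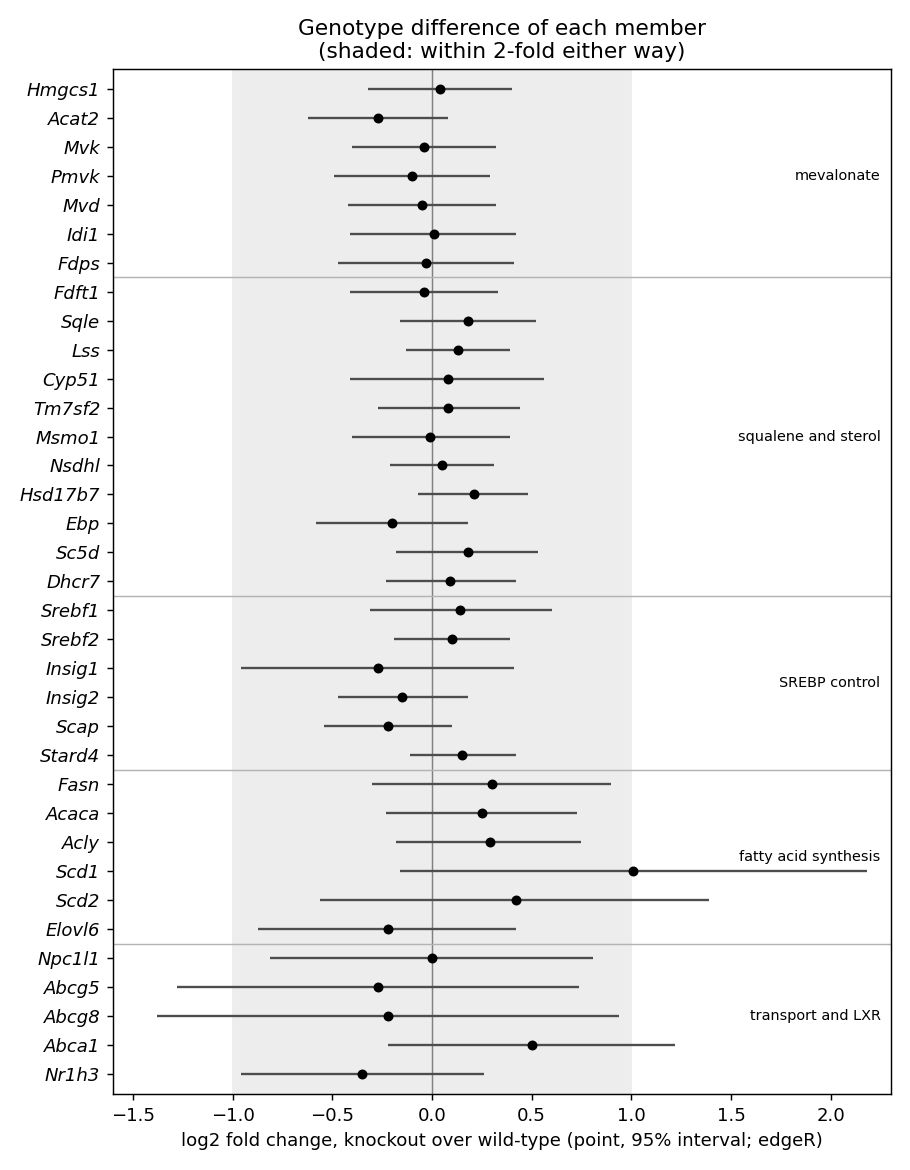
Log2 fold change of each gene, knockout over wild-type (point), with its 95% interval (line) from edgeR, ordered by role, and with the range of 2-fold either way shaded. All 35 intervals cross 0, and those of Scd1, Scd2, Abcg5, Abcg8 and Abca1 leave the shaded range.

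In the mevalonate steps the knockout and wild-type adenomas had close levels. Of the 7 genes 2 were higher and 5 lower, none passed the test, and the median log2 fold change was -0.04. Hmgcs1, the synthase that makes HMG-CoA, had the highest level per length of the role at 84.9 CPM per kilobase of exon. It measured 458, 342 and 387 CPM in the knockout mice and 384, 373 and 397 CPM in the wild-type mice, so the wild-type values lay inside the knockout range. Its log2 fold change was 0.04 ± 0.15 (SE; -0.08 to 0.14 with any mouse left out), with a 95% interval from -0.32 to 0.40.

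Acat2, the cytosolic thiolase that joins acetyl-CoA units at the entry to the pathway (mm10 chr17:12942890-12960747), measured 43.6, 30.1 and 37.4 CPM in the knockout mice and 43.8, 44.3 and 46.1 CPM in the wild-type mice. Every knockout value was below every wild-type value, but knockout replicate 1 missed the lowest wild-type value by little. The log2 fold change was -0.27 ± 0.15 (adjusted p = 0.801, edgeR). It was -0.41 without knockout replicate 1 and -0.14 without knockout replicate 2, the extremes of the 6 omissions. Reads of Acat2 are uncertain, since Acat3 is 97.7% identical over 1477 bases and Tcp1 transcripts share 445 bases at 98.7%. Acat3 itself held 285 counts over the 6 libraries, against 8170 for Acat2, and Tcp1 held 54799.

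Pmvk, the phosphomevalonate kinase, measured 36.7, 27.2 and 28.3 CPM in the knockout mice and 28.5, 33.2 and 37.0 CPM in the wild-type mice, with the groups overlapping over most of their range. Its log2 fold change was -0.10 ± 0.16, and -0.25 to 0.00 with any mouse left out. The mevalonate kinase Mvk, the decarboxylase Mvd, the isomerase Idi1 and the farnesyl diphosphate synthase Fdps had log2 fold changes from -0.05 to 0.01. Fdps had the lowest level per length of all 35 genes, 2.86 CPM per kilobase, and it is among the least certain. It shares 605 to 1066 bases at 96.1% to 98.9% identity with 4 processed pseudogenes (Gm3571, Gm5873, Gm7979 and Gm8163). Gm43738 overlaps it on the same strand and held 0 counts, which does not show whether reads lying on both genes were counted. How far the low level of Fdps reflects uncounted reads was not tested. Idi1 has copies as well, of which Gm35570 held 72 counts against 36650 for Idi1.

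Within the mevalonate steps the libraries differed more from mouse to mouse than by genotype. In knockout replicate 1 all 7 genes were above their own mean of the 6 libraries, by a median of 0.23 on the log2 scale (log2 of CPM plus 0.5). In knockout replicate 2 all 7 were below it, with a median of -0.28. The other 4 libraries had medians between -0.07 and 0.07. The median log2 fold change of the role was accordingly 0.09 without knockout replicate 2 and -0.19 without knockout replicate 1.

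In the squalene and sterol steps 8 of the 11 genes were higher and 3 lower in the knockout adenomas, with a median log2 fold change of 0.08, and none passed the test. Cyp51, the lanosterol demethylase, had the highest level per length of the role at 52.8 CPM per kilobase. It measured 284, 206 and 228 CPM in the knockout mice and 224, 177 and 279 CPM in the wild-type mice, a log2 fold change of 0.08 ± 0.21. The highest mouse of each group had nearly the same level, and the groups overlapped over most of their range.

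Hsd17b7, the ketosteroid reductase of the demethylation complex, measured 58.0, 55.1 and 59.7 CPM in the knockout mice and 44.8, 55.7 and 49.2 CPM in the wild-type mice. Only wild-type replicate 2 reached the knockout range. Its log2 fold change of 0.21 ± 0.12 had an interval from -0.07 to 0.48 (adjusted p = 0.802, edgeR).

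Sqle, the squalene epoxidase and a slow step of the pathway, measured 187, 142 and 164 CPM in the knockout mice and 140, 135 and 160 CPM in the wild-type mice. Knockout replicate 2 lay among the wild-type mice, and the log2 fold change was 0.18 ± 0.14 (0.07 to 0.28 with any mouse left out). Sc5d, the lathosterol desaturase, had a log2 fold change of the same size (0.18 ± 0.15), but there it was knockout replicate 2 that was the highest library at 178 CPM, against 122 to 146 CPM in the other 5.

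The remaining sterol enzymes had log2 fold changes between -0.20 and 0.13. The isomerase Ebp was the lowest at -0.20 ± 0.16 and lanosterol synthase Lss the highest at 0.13 ± 0.11. The C4 demethylation enzymes Msmo1 and Nsdhl stood at -0.01 and 0.05, the reductases Tm7sf2 and Dhcr7 at 0.08 and 0.09, and squalene synthase Fdft1 at -0.04. Nsdhl was among the steadiest of the genes, from 42.0 to 50.6 CPM over the 6 mice. Whether reads were counted by strand is not stated in the sources at hand, so Fdft1 and Cyp51 can hold or lose reads of the opposite-strand genes Ctsb and Akap9, and Tm7sf2 overlaps Vps51 on its own strand.

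Genes of SREBP control were 3 higher and 3 lower, with a median log2 fold change of -0.02. Srebf2, the SREBP that favours sterol genes, held nearly the same level in every mouse, 324, 326 and 323 CPM in the knockout and 327, 285 and 295 CPM in the wild-type group. Its highest library was 1.15 times its lowest, the narrowest range of the 35 genes, and its log2 fold change was 0.10 ± 0.12. Srebf1, whose SREBP-1c form favours fatty acid genes, ran from 135 to 202 CPM in the knockout and from 128 to 176 CPM in the wild-type mice, a log2 fold change of 0.14 ± 0.19 that ran from 0.00 to 0.29 with any mouse left out. Gene counts do not separate its 1a and 1c transcripts.

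Insig1, the sterol-induced anchor that keeps Scap in the endoplasmic reticulum, was the highest of its role per length at 81.8 CPM per kilobase. It measured 235, 284 and 169 CPM in the knockout mice and 201, 383 and 247 CPM in the wild-type mice. Wild-type replicate 2 was the highest and knockout replicate 3 the lowest, a 2.27-fold range, and the log2 fold change of -0.27 ± 0.29 had an interval from -0.96 to 0.41. Omitting wild-type replicate 2 gave 0.03, so the direction rested on that library, and omitting wild-type replicate 1 gave -0.47. Insig2, the related anchor, ran only from 39.5 to 55.2 CPM over the 6 mice (-0.15 ± 0.14).

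Scap measured 88.3, 89.4 and 86.6 CPM in the knockout mice and 113, 109 and 85.6 CPM in the wild-type mice. The knockout values lay together, and wild-type replicate 3 was just below them while the other 2 wild-type mice were above. The log2 fold change was -0.22 ± 0.13 (adjusted p = 0.805, edgeR), and -0.34 without wild-type replicate 3.

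Stard4, a soluble carrier of cholesterol between membranes, measured 175, 187 and 172 CPM in the knockout mice and 164, 150 and 166 CPM in the wild-type mice. All 3 knockout values exceeded all 3 wild-type values, by a log2 fold change of 0.15 ± 0.11 whose interval ran from -0.11 to 0.42 (adjusted p = 0.813, edgeR). It was between 0.11 and 0.18 with any mouse left out.

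Fatty acid synthesis held the largest log2 fold change of the 35 genes, that of Scd1. Of its 6 genes 5 were higher and 1 lower in the knockout adenomas, with a median log2 fold change of 0.29, and none passed the test. Leaving out a mouse moved that median between 0.14, without knockout replicate 3, and 0.48, without knockout replicate 2. In bulk tissue, fewer cells of a type and less RNA per cell cannot be told apart, for these genes and those of sterol transport alike.

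Scd1, a stearoyl-CoA desaturase that makes monounsaturated fatty acids (mm10 chr19:44394451-44407709), measured 164, 51.6 and 144 CPM in the knockout mice and 88.5, 34.4 and 55.6 CPM in the wild-type mice. Knockout replicates 1 and 3 were above every wild-type mouse, and knockout replicate 2 was below 2 of the 3. The log2 fold change of 1.01 ± 0.49 had a 95% interval from -0.16 to 2.18 (adjusted p = 0.793, edgeR). It ran from 0.70, without knockout replicate 1, to 1.40, without wild-type replicate 1, over the 6 omissions, and was 1.37 without knockout replicate 2.

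Scd2, the neighbouring desaturase on the other strand (mm10 chr19:44293676-44306864), had the highest level per length of all 35 genes, 154 CPM per kilobase. It measured 1263, 446 and 1183 CPM in the knockout mice and 865, 503 and 798 CPM in the wild-type mice. The order of the libraries resembled that of Scd1, high in knockout replicates 1 and 3 and low in knockout replicate 2 and wild-type replicate 2, and the log2 fold change was 0.42 ± 0.41 (0.16 to 0.76 with any mouse left out).

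The 2 desaturases kept unequal proportions between the groups. Scd2 was 7.68, 8.64 and 8.24 times Scd1 in CPM in the knockout mice and 9.77, 14.6 and 14.4 times in the wild-type mice, so that the 3 knockout ratios were the 3 lowest. This ratio was examined after its values were seen and was not tested. Scd1 and Scd2 transcripts share 623 bases at 95.5% identity, so part of the reads of either could be assigned to the other, and the sources used here do not state how reads with several alignments were treated.

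Fasn, the fatty acid synthase, measured 351, 203 and 387 CPM in the knockout mice and 295, 223 and 246 CPM in the wild-type mice, a log2 fold change of 0.30 ± 0.26 (0.11 to 0.54 with any mouse left out). Acly, which makes cytosolic acetyl-CoA from citrate, measured 212, 156 and 227 CPM in the knockout mice and 191, 131 and 166 CPM in the wild-type mice, a log2 fold change of 0.29 ± 0.20 (0.15 to 0.43). In both genes knockout replicates 1 and 3 were the 2 highest libraries and knockout replicate 2 lay in or below the wild-type range. Acaca, the acetyl-CoA carboxylase, had its highest library in knockout replicate 3 (87.5 CPM) and its lowest in wild-type replicate 2 (52.8 CPM), with a log2 fold change of 0.25 ± 0.20 (0.08 to 0.41) and a 99.2% identical pseudogene, Gm5182, that makes its reads uncertain.

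Elovl6, the elongase that lengthens the product of Fasn, ran the other way. It measured 174, 335 and 183 CPM in the knockout mice and 227, 289 and 292 CPM in the wild-type mice. Knockout replicate 2 was the highest library and the other 2 knockout mice were the lowest, which left a log2 fold change of -0.22 ± 0.27. It was -0.59 without knockout replicate 2 and -0.06 without knockout replicate 1.

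**Figure D3:**
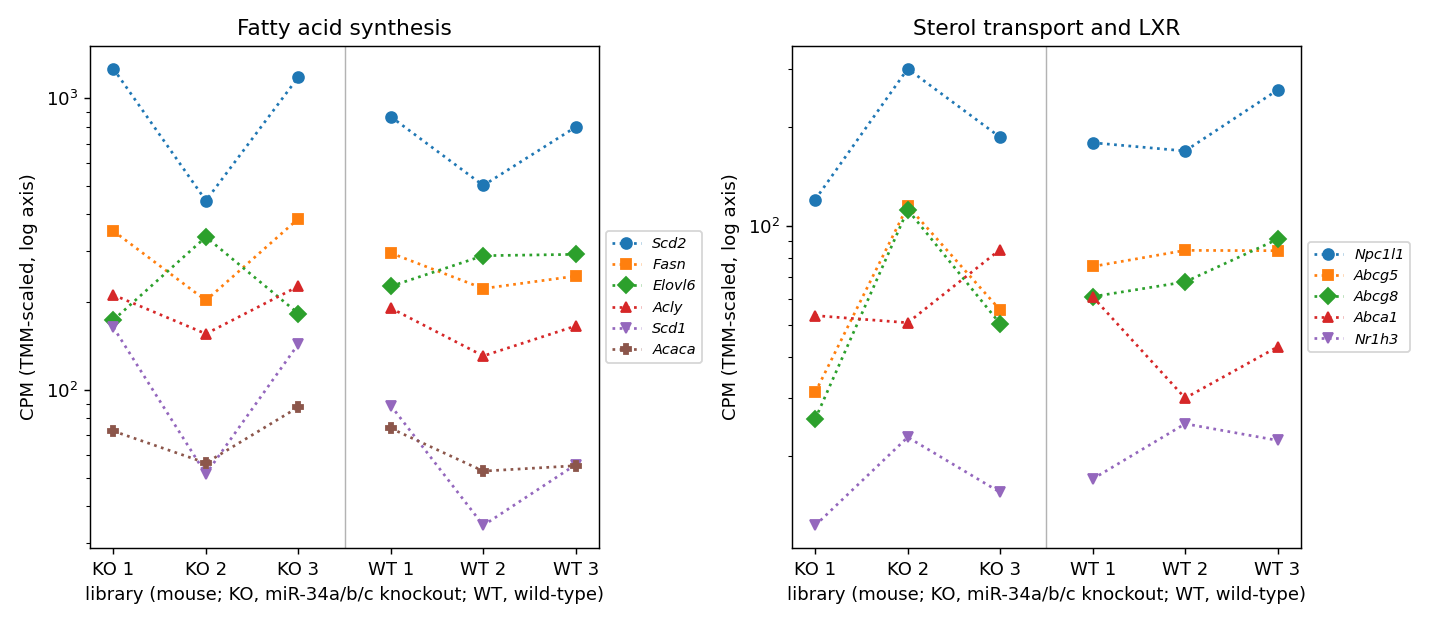
CPM (TMM-scaled, log axis) in each of the 6 libraries, named by mouse, for the fatty acid synthesis genes (left) and the sterol transport genes with Nr1h3 (right); dotted lines only join the points of a gene within a genotype. In knockout replicate 2, Scd1, Scd2, Fasn, Acly and Acaca are at their lowest of the 3 knockout mice, and Elovl6, Npc1l1, Abcg5, Abcg8 and Nr1h3 at their highest.

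Sterol transport and its receptor had 1 gene higher and 4 lower in the knockout adenomas, a median log2 fold change of -0.22, and none that passed the test. The median was -0.62 without knockout replicate 2 and 0.15 without knockout replicate 1, so its direction rested on which knockout mice were counted. Npc1l1, the cholesterol importer and the highest of its role per length (45.3 CPM per kilobase), measured 120, 300 and 186 CPM in the knockout mice and 179, 169 and 259 CPM in the wild-type mice. Knockout mice were both the highest and the lowest, the group means were 202 CPM each, and the 95% interval of the log2 fold change ran from -0.81 to 0.81. The log2 fold change was -0.40 without knockout replicate 2 and 0.26 without knockout replicate 1.

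Abcg5 and Abcg8 encode the 2 subunits of the sterol exporter and overlap on opposite strands (mm10 chr17:84658234-84683011 and chr17:84676302-84700333). Abcg5 measured 31.2, 115 and 55.5 CPM in the knockout mice and 75.3, 84.3 and 84.1 CPM in the wild-type mice. Abcg8 measured 25.9, 112 and 50.4 CPM in the knockout mice and 61.0, 67.6 and 91.1 CPM in the wild-type mice. In both subunits knockout replicates 1 and 3 were below every wild-type mouse and knockout replicate 2 was above them all. The log2 fold changes were -0.27 ± 0.43 and -0.22 ± 0.49, and -0.90 and -0.94 without knockout replicate 2. Without knockout replicate 1 both were above 0, at 0.07 and 0.15. The ratio of Abcg5 to Abcg8 in CPM stayed between 0.924 and 1.25 over the 6 mice while each gene varied 3.69-fold and 4.34-fold, though without a known strand setting part of the reads could be shared.

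Abca1, which exports cholesterol to lipoprotein particles and is a classic LXR target, measured 53.4, 50.8 and 84.8 CPM in the knockout mice and 60.9, 30.0 and 42.9 CPM in the wild-type mice. Knockout replicate 3 was the highest and wild-type replicate 2 the lowest library, and the log2 fold change was 0.50 ± 0.30 (adjusted p = 0.805, edgeR). Omitting knockout replicate 3 gave 0.21, omitting wild-type replicate 2 gave 0.28, and omitting wild-type replicate 1 gave 0.78. Nr1h3, the LXR-alpha receptor, measured 12.3, 22.8 and 15.5 CPM in the knockout mice and 17.0, 25.1 and 22.3 CPM in the wild-type mice. Knockout replicates 1 and 3 were the 2 lowest libraries, and the log2 fold change was -0.35 ± 0.26 (-0.62 to -0.17 with any mouse left out), the most negative of the 35 genes. Abca1 and Nr1h3 thus had log2 fold changes of opposite sign, neither past the test. The exporters Abcg5 and Abcg8 (-0.27 and -0.22) had the sign of Nr1h3, but not without knockout replicate 1 (0.07 and 0.15). The neighbouring list of transport, esterification and LXR genes was split, with 8 higher and 10 lower. In it Abcg1 and Mylip (0.52 ± 0.34 and 0.39 ± 0.36) had the sign of Abca1, and Lpcat3 (-0.08 ± 0.16) had that of Nr1h3. The other LXR receptor, Nr1h2, had the higher mean level of the receptors (94.4 against 19.1 CPM) and a log2 fold change of -0.30 ± 0.18.

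The spread between mice followed the roles. The highest library was less than 1.5 times the lowest in 18 of the 35 genes, 1.5 to 2 times in 9 and 2 times or more in 8. Of the 8, all but Insig1 belong to the desaturases (Scd1 and Scd2) or to sterol transport and its receptor (Npc1l1, Abcg5, Abcg8, Abca1 and Nr1h3). The largest range was that of Scd1, 4.79-fold. The median SD within a genotype, on the log2 scale, was 0.19 in the mevalonate steps, 0.18 in the squalene and sterol steps, 0.16 in SREBP control, 0.39 in fatty acid synthesis and 0.52 in sterol transport, against 0.24 over all tested genes. The tested genes as a whole were not matched to the roles for level.

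**Figure D4:**
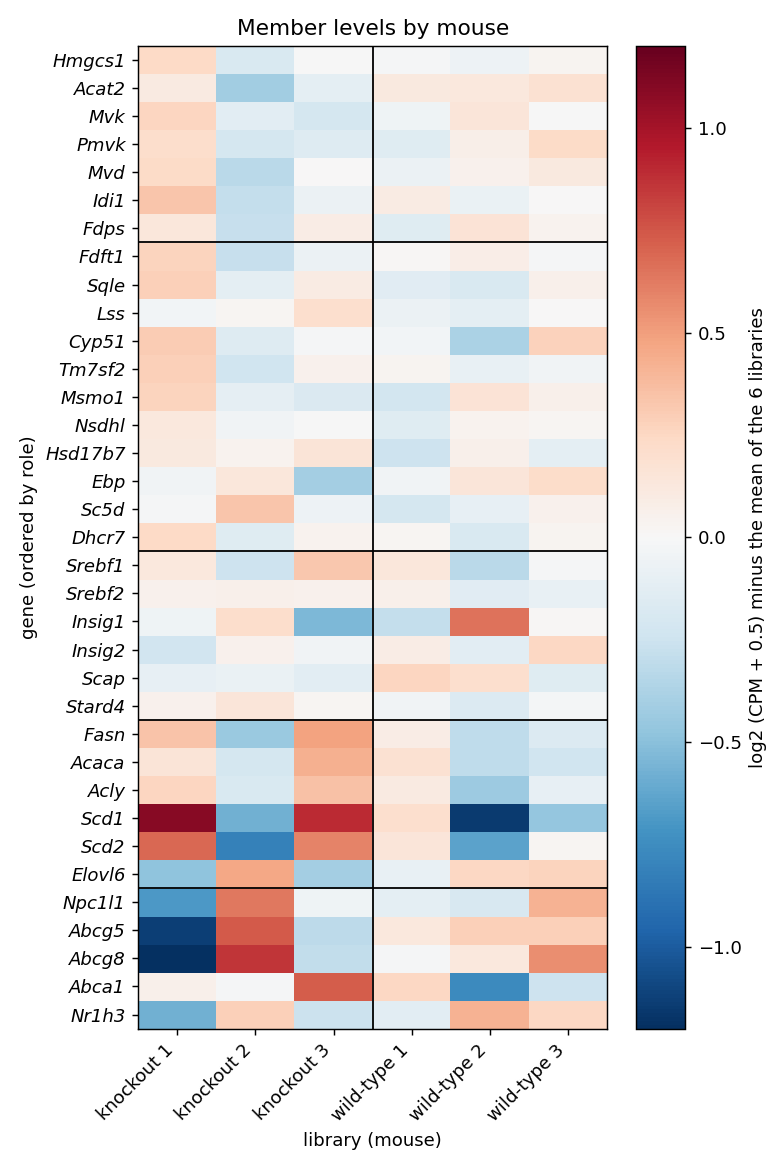
Deviation of each gene from its mean over the 6 libraries, as log2 of CPM plus 0.5, with a row per gene ordered by role and a column per mouse; red is above and blue below the mean. The mevalonate rows are red in knockout replicate 1 and blue in knockout replicate 2, and the rows of Scd1 and Scd2 take colours opposite to those of Abcg5 and Abcg8 in knockout replicates 1, 2 and 3.

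By role medians, fatty acid synthesis and sterol transport lay on opposite sides of their means, a description that was not tested. The median deviation of the fatty acid genes from their 6-library means was 0.30, -0.33 and 0.45 in the knockout mice and 0.12, -0.37 and -0.13 in the wild-type mice. That of the transport genes was -0.69, 0.63 and -0.26 in the knockout mice and -0.02, 0.13 and 0.29 in the wild-type mice. The signs of the medians were opposite in all 6 libraries, though near 0 for transport in wild-type replicate 1. Single genes broke the pattern, since Elovl6 had the signs of the transport medians in all 6 and Abca1 had those of the fatty acid medians in all 6. For the SREBP control genes the 6 medians stayed between -0.13 and 0.08.

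Markers of other and of more mature cells also differed between the libraries, and none of the markers in the lists named here was called. The 12 enterocyte markers summed to 8314, 19597 and 10660 CPM in the knockout mice and 11121, 11270 and 17271 CPM in the wild-type mice. The sum was lowest in knockout replicate 1 and highest in knockout replicate 2, as were Elovl6, Npc1l1, Abcg5 and Abcg8. By single markers, 5 of the 12 were highest in knockout replicate 2 and 7 in wild-type replicate 3, and 4 were lowest in knockout replicate 1 and 5 in wild-type replicate 2. The 8 fibroblast markers summed to 1410, 701 and 2622 CPM in the knockout mice and 1005, 420 and 1280 CPM in the wild-type mice. All 8 were lowest in wild-type replicate 2 and 7 were highest in knockout replicate 3. These libraries were also lowest and highest for Acaca, Acly, Srebf1, Abca1 and the sterol gene Lss. By genotype 7 of the 8 fibroblast markers were higher in the knockout adenomas, with a median log2 fold change of 0.76 and sums that overlapped. The 8 proliferation markers summed to 1160, 847 and 1032 CPM in the knockout mice and 885, 791 and 818 CPM in the wild-type mice, and 7 of them were highest in knockout replicate 1, where all 7 mevalonate genes were above their means.

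Other lists differed by genotype in their sums. Smooth muscle markers (575 to 685 CPM in knockout, 228 to 515 CPM in wild-type mice) and endothelial markers (308 to 419 CPM and 202 to 252 CPM) summed higher in every knockout library, and lymphocyte and plasma cell markers (257 to 761 CPM and 925 to 1393 CPM) summed lower. Most of the last sum was Jchain alone (245 to 726 CPM and 890 to 1343 CPM), though all 7 tested markers of that list were lower. By single markers the groups did not overlap in 5 of 8, 4 of 8 and 4 of 8 of these lists in that order. Among all tested genes 11.2% did not overlap. The groups did not overlap in 0 of 12 enterocyte, 1 of 8 fibroblast and 1 of 10 macrophage markers. For proliferation and epithelial markers it was 2 of 8 each. Macrophage markers were higher in 9 of 10 (199 to 283 CPM in knockout, 149 to 252 CPM in wild-type mice) and epithelial markers lower in 7 of 8 (11139 to 14353 CPM and 13665 to 16872 CPM), with sums that overlapped between the groups. The part of these cell types in the values of the 35 genes was not tested.

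Without knockout replicate 2 the comparison of 2 knockout with 3 wild-type mice still called none of the 35 genes (lowest adjusted p = 0.156, Elovl6, edgeR). Unadjusted p fell under 0.05 in 8 of the 35, where 17.9% of the 17805 genes tested that way did. These were Fasn, Acly, Scd1 and Scd2, which were higher in the knockout mice with log2 fold changes of 0.54, 0.43, 1.37 and 0.76, and Elovl6, Abcg5, Abcg8 and Nr1h3, which were lower with -0.59, -0.90, -0.94 and -0.62. No gene of the mevalonate, sterol or SREBP control roles was among them. The omission was of a library seen to differ, so these values describe how far that library set the result. Knockout replicate 2 was also the only knockout mouse taken as male, while wild-type replicate 3, also taken as male, stayed in. The omission therefore does not separate sex from other differences of knockout replicate 2. With a sex term and all mice kept, Fasn, Acly, Scd1 and Scd2 had log2 fold changes of 0.25, 0.27, 0.86 and 0.29. For Elovl6, Abcg5, Abcg8 and Nr1h3 they were -0.29, -0.44, -0.40 and -0.39. The other omissions gave an unadjusted p under 0.05 in Acat2 (without knockout replicate 1), in Scd1 and Abca1 (without wild-type replicate 1) and in Scap (without wild-type replicate 3), and called none.

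Of 10 other genes of SREBP processing none passed after adjustment and 1 had an unadjusted p under 0.05, Ufd1, a cofactor in the degradation of membrane proteins of the endoplasmic reticulum. It measured 102, 74.4 and 93.8 CPM in the knockout mice and 49.0, 59.7 and 76.7 CPM in the wild-type mice, with the lowest knockout mouse inside the wild-type range (adjusted p = 0.793, edgeR). Mbtps1, the site-1 protease that cuts SREBPs, measured 167, 170 and 184 CPM in the knockout mice and 174, 125 and 131 CPM in the wild-type mice, with a 95% interval of the log2 fold change from -0.09 to 0.64.

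Of 12 other sterol and isoprenoid genes 11 were tested and none passed at either level. Icmt, which methylates prenylated proteins, and Coq2, of ubiquinone synthesis, had the smallest p. They were the 2 of the 11 in which the groups did not overlap, where 11.2% of all tested genes did not overlap. Icmt measured 101, 102 and 105 CPM in the knockout mice and 92.8, 74.3 and 93.6 CPM in the wild-type mice, and Coq2 measured 53.3, 52.9 and 51.3 CPM in the knockout mice and 58.2, 58.0 and 55.4 CPM in the wild-type mice. Idi2, a second isomerase, had 0 counts and was not tested.

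Of 18 other genes of fatty acid synthesis and desaturation none passed at either level, with 6 higher, 12 lower and a median log2 fold change of -0.10. Slc25a1, the carrier that brings citrate from mitochondria to Acly, measured 174, 206 and 161 CPM in the knockout mice and 204, 272 and 223 CPM in the wild-type mice, with an interval from -0.75 to 0.01. Pnpla2, a triglyceride lipase, measured 93.2, 116 and 83.7 CPM in the knockout mice and 118, 147 and 115 CPM in the wild-type mice, with an interval from -0.77 to 0.02. Of 18 other genes of sterol transport, esterification and LXR control none passed at either level, with 8 higher, 10 lower and a median of -0.02. Cyp27a1, a sterol hydroxylase, measured 35.6, 39.3 and 42.4 CPM in the knockout mice and 53.0, 61.5 and 38.5 CPM in the wild-type mice. Npc1, the lysosomal cholesterol exporter, measured 66.6, 58.3 and 76.1 CPM in the knockout mice and 59.0, 42.3 and 62.2 CPM in the wild-type mice. These 2 had the smallest p of that list, and both overlapped between the groups.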

How the data were processed

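The authors deposited whole-number counts per Ensembl gene, 1 table per library, with no summary rows. The submitters' processing notes list TopHat2 2.1.0, HTSeq 0.6.1 and the mm10 build. Strand, multiple alignments and annotation release were not given in the sources used here. The other numeric column gives a gene length. The 35 genes, the role groups and the lists were chosen with earlier results of these data known. Genes were filtered with filterByExpr, scaled by TMM (factors 0.914 to 1.09) and compared with edgeR 4.0.16 in R 4.3.3 (robust quasi-likelihood F-test, Benjamini-Hochberg adjustment over 17254 genes). The SE was derived from that fit, as the absolute log2 fold change divided by the square root of the F statistic. The 95% intervals extend that SE times the t quantile at the fit's total degrees of freedom. CPM use TMM library sizes; CPM per kilobase divides by the union of GENCODE M21 exons, and gene coordinates are those tables' with the first base as 1. Values were given mouse by mouse for the 2 smallest p and the highest level per length of each role and for the 2 smallest p of each neighbouring list with a mean of at least 1 CPM; Elovl6, Srebf2, Fasn and the exporter pair were added after their values were seen. Copies were sought with BLAST 2.17.0 (at least 95% identity over 300 bases). Alternatives were DESeq2 1.42.0 and its size factors, limma 3.58.1 voom, library size alone, other filters, a sex term, a replicate block, omission of each mouse and the longest transcript's length. Replicates are separate mice. Same-numbered libraries were not paired by the labels, and their deviations correlated by 0.218, 0.273 and 0.081. Those of differently numbered libraries correlated by -0.297 to 0.179. For each wild-type library the same-numbered knockout library gave the highest value, though knockout replicate 3 correlated more with wild-type replicate 1 (0.179).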

Additional observations from a re-analysis of the deposited data

How the results depend on the processing

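No setting called any of the 35 genes. Over the 14 alternatives their median log2 fold change ran from -0.02 to 0.12 and between 25 and 31 of them had an interval within 2-fold. The count of all genes differing was 16; DESeq2's Wald test gave 110, and leaving out a mouse gave 9 to 41, where the low end came from omitting knockout replicate 1 (9) or 3 (10) and the high end from omitting knockout replicate 2 (41) or wild-type replicate 3 (29). Of the 490 single-gene values under the alternatives, 481 moved by less than their SE and 9 by more. The sign was kept throughout in 19 genes and changed under at least 1 alternative in the other 16, none of which had a called direction. With library size alone the median of all tested genes moved to 0.08. With a replicate block 14 genes differed, none of the 35 among them, and Scd1 and Nr1h3 had an unadjusted p under 0.05; the labels do not pair the mice, and not every same-numbered pair correlated over 0.1. With 3 mice a group, differences inside the intervals given cannot be told from none here. The intervals are not adjusted for the number of genes, so larger differences can be missed as well. Ufd1, with an interval from 0.08 to 1.01, was not called (adjusted p = 0.793, edgeR). Leaving out a mouse leaves 2 in its group. The causes of these changes were not tested.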
